A study of Mus musculus with 18 samples.

Results

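The genes examined here encode nuclear-encoded parts of the 5 enzyme complexes of oxidative phosphorylation and assembly factors of complex I. All were measured in mouse liver after 20 weeks on 1 of 3 diets. They were chosen by symbol alone: every gene whose name starts with Nduf, Uqcr, Atp5 or Cox4 to Cox8, together with Sdha, Sdhb, Sdhc and Sdhd, taken from probe sets paired with exactly 1 gene symbol. This gave 90 of the 18193 genes on the array, carried by 179 probe sets, and the brightest probe set stood for each gene. By complex they were 6 core subunits, 28 accessory subunits and 8 assembly factors of complex I, 4 genes of complex II, 8 of complex III, 19 of complex IV and 17 of complex V. A further 8 genes with such names were found only on probe sets with several symbols and were left out, so the complexes are not complete here.

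All mice were male C57BL/6J, bought at 5 weeks of age and acclimatised for 1 week. The first group received a Western-style diet with 39.9% of its energy from fat and 34.0% from sucrose (20% butter, 1% soy oil and 0.15% cholesterol), the second the same diet with 0.05% quercetin, a plant flavonol, and the third the purified control diet AIN93G. Each group had 6 arrays of the Affymetrix Mouse430_2 type, with the total RNA of 1 mouse on each. Mice were kept 3 to a cage, and which of them shared a cage is not given, so the p-values treat cage mates as independent. A control diet carrying quercetin was part of the study and is not analysed here.

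Oxidative phosphorylation takes place in the inner mitochondrial membrane. Complex I oxidises NADH and complex II oxidises succinate, and both pass electrons through ubiquinone to complex III, then through cytochrome c to complex IV, which reduces oxygen to water. Complexes I, III and IV pump protons, and complex V, the ATP synthase, lets them flow back through a ring of c subunits to make ATP. Liver depends on this chain for the energy of fatty acid oxidation, glucose synthesis and urea synthesis. A few central subunits are encoded by mitochondrial DNA, and those were not analysed here.

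Expression is given as log2 of the intensity plus 16, then quantile normalized between arrays. A change is the difference of group means on that scale, which understates the change of dim genes. A gene was said to have risen or fallen when its adjusted p (limma's moderated test, Benjamini-Hochberg over all 13645 genes tested) was under 0.05. Control arrays 4 and 5 were nearly identical: their log2 values over 2673 bright probe sets differed with an SD of 0.049, against at least 0.164 for each of the other pairs among 153. They were averaged as control sample 4-5, so that n = 6 Western, n = 6 Western-plus-quercetin and n = 5 control samples entered the tests. The medians of the arrays as deposited ran from 12.7 to 23.1 intensity units. All 11 hepatocyte markers measured passed the filter on dim genes, while 7 of 10 skeletal and heart muscle markers were below it.

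Of the 90 genes, 87 passed that filter, which was a mean log2 level of at least 4.564. The 3 left out were Cox7b2 at 4.13, Cox8b at 4.42 and Ndufb4, just below the limit at 4.563, and the dimmest kept were Cox6b2 at 4.72 and Cox4i2 at 4.74. Mean levels of the genes kept ran from 4.72 to 12.81 with a median of 10.57, against 6.51 over all genes tested, and 71 of them lay above 9. These are signals of different probe sets, so they do not rank the transcripts. The genes varied little between mice of a group: the median SD within a group was 0.0946, against 0.196 over all genes tested and 0.134 over the 1652 genes above log2 9. The lowest SD was that of Sdhc, a membrane anchor of complex II, at 0.0429, and the highest that of Cox8c, a testis form of a complex IV subunit, at 0.37.

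In livers of mice on the Western-style diet the transcripts of the chain were, relative to the other transcripts, a little lower than in control livers, with 5 genes past the threshold downward and 1 upward. Atp5g1, which encodes the c subunit of ATP synthase, Ndufb11, Ndufb5 and Ndufb9, accessory subunits of the membrane arm of complex I, and Ndufaf6, a complex I assembly factor, fell. Cox6b2, a complex IV subunit form known from testis, rose at a signal near background. The 5 that fell were 5.75% of the 87, where 3.16% of all genes tested fell, and the 1 that rose was 1.15%, where 5.49% of all genes rose. In either direction 6.9% of these genes passed the test, against 8.65% of all genes. These splits depend on the scaling. After quantile normalization 431 of all genes fell and 749 rose, in the values as deposited 84 fell and 3641 rose, and with array medians centred 176 fell and 1108 rose. Of the 87 genes, 0 fell and 1 rose (Cox6b2) in the values as deposited, and 1 fell (Atp5g1) and 0 rose with array medians centred.

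The small differences mostly had the same sign. The difference was negative for 73 of the 87 genes (83.9%), against 53% of all genes, and its unadjusted p was under 0.05 for 28 genes downward (32.2% against 10.9% of all genes) and for 1 upward (1.15% against 12.4%), together 33.3% against 23.3%. Every Western sample lay below every control sample for 12 genes (13.8% against 2.73% of all genes) and above for 0 (against 4.17%). The median difference was -0.0989, or -6.63%, beside -0.0148 for all genes, -0.0137 for the 1652 genes above log2 9 and -0.0854 for the 71 of these genes above that level.

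This direction is one relative to the other transcripts on the array. In the values as deposited, without normalization between arrays, the median of all genes was itself 0.216 above control and that of the 87 genes was 0.0736 above control, so that they lay -0.142 from the median of all genes, with 78 of the 87 below it. With array medians centred the same distance was -0.142, and with quantile normalization it was -0.0841, with 69 of the 87 below the median of all genes. The genes above log2 9 did not show such a distance: it was -0.0156 in the values as deposited and 0.00111 after quantile normalization. In whole tissue, less RNA per cell and fewer cells of a type cannot be told apart.

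**Figure D1:**
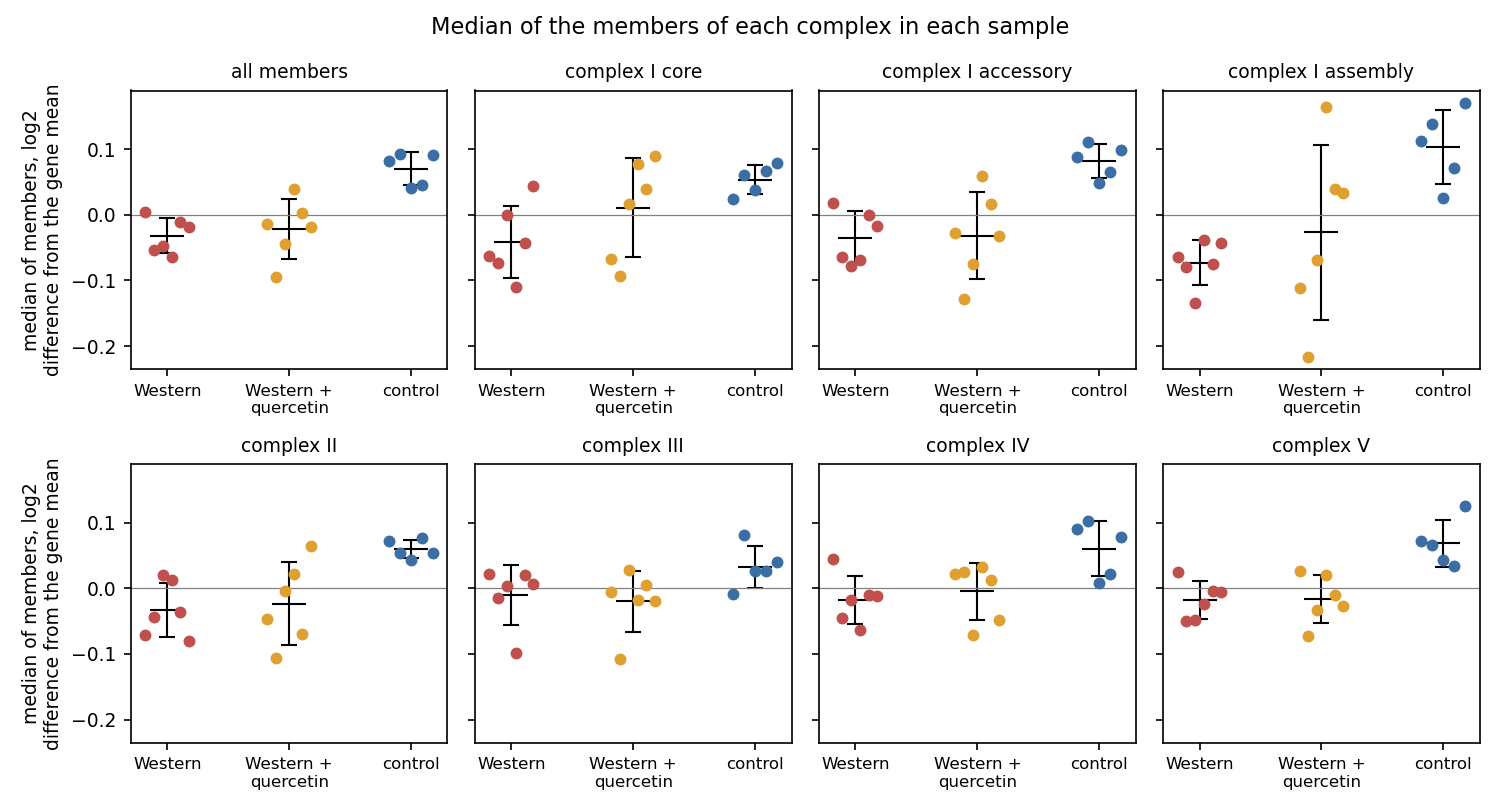
Median over the genes of each complex in each sample, as the log2 difference from each gene's mean over all 17 samples after quantile normalization. Points are samples (6 Western, 6 Western plus quercetin, 5 control), and bars show the mean and SD; over all 87 genes the 12 samples on the Western-style diet, with or without quercetin, lie between -0.0949 and 0.04, below the 5 control samples at 0.0412 to 0.093.

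The medians of all 87 genes in each sample separated the diets narrowly. They were -0.0636 at the lowest, -0.0332 at the median and 0.00483 at the highest in Western livers and -0.0949, -0.0163 and 0.04 in Western-plus-quercetin livers, against 0.0815, 0.093, 0.0412, 0.0448 and 0.0913 in the 5 control livers. Neither group on the Western-style diet overlapped the controls, although Western-plus-quercetin sample 4, at 0.04, came close to control sample 3, at 0.0412. These are medians of genes chosen together, so no test was made of them.

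After quantile normalization the medians of the complexes lay at different distances from control, and whether the complexes differed was not tested. In Western livers the median difference from control was -0.192 for the 8 complex I assembly factors, -0.136 for the 27 accessory subunits and -0.118 for the 6 core subunits of complex I, -0.109 for the 17 genes of complex IV, -0.0997 for the 4 of complex II, -0.0777 for the 17 of complex V and -0.0604 for the 8 of complex III. All 7 were positive in the values as deposited (0.0618 to 0.0904) and all 7 lay below the median of all genes under each of the 3 scalings. Their order depended on the scaling. In the values as deposited the complex I core was lowest (0.0618, with 0.0762 for the assembly factors). With array medians centred the accessory subunits (-0.0852) lay further below control than the assembly factors (-0.0711). The genes that fell were in complexes I and V.

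**Figure D2:**
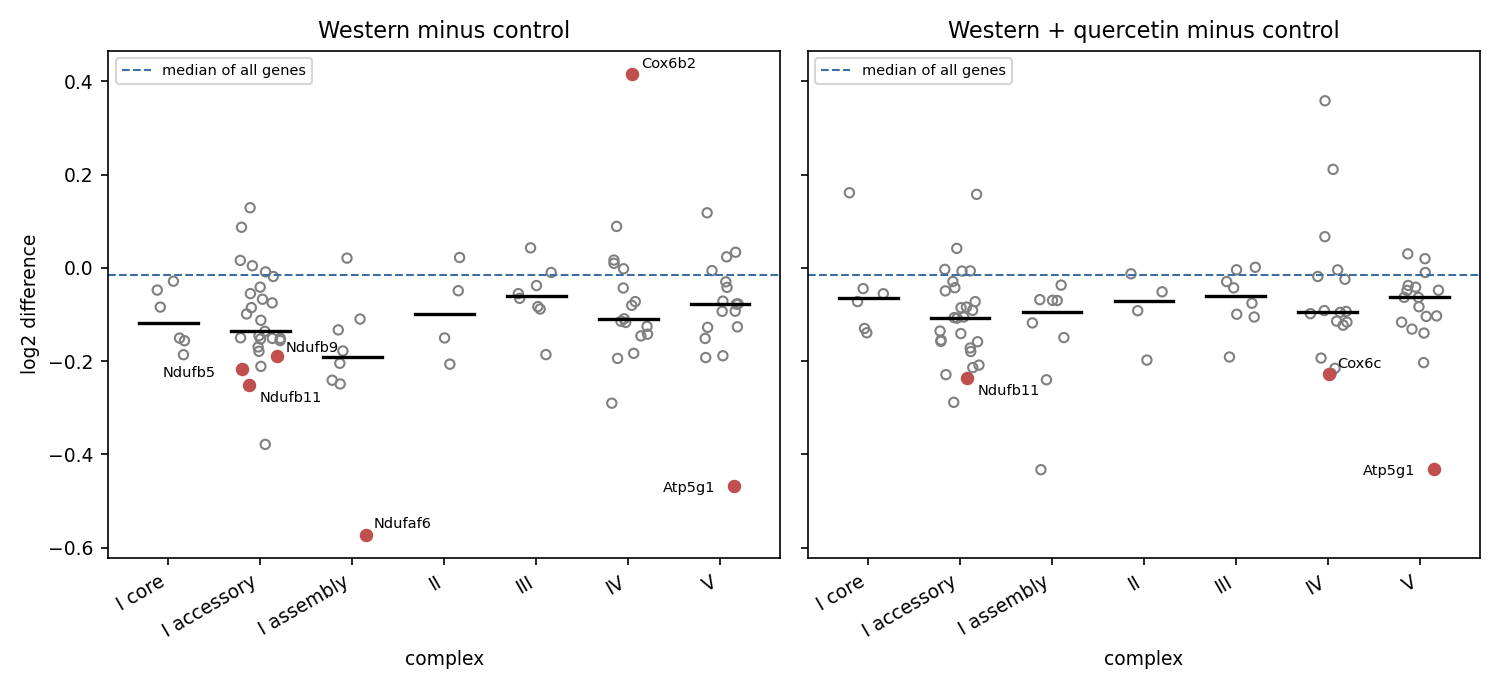
Difference in log2(intensity + 16) from the control diet for each of the 87 genes, grouped by complex, for the Western-style diet (left) and the same diet with quercetin (right). Filled points passed the test at an adjusted p under 0.05, black lines are medians of the complex and the dashed line is the median of all genes; every black line lies below the dashed one.

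Complex V contained the gene with the smallest p. Atp5g1 read 9.93 at the lowest, 10.18 at the median and 10.39 at the highest in Western livers and 9.94, 10.22 and 10.39 in Western-plus-quercetin livers, against 10.67, 10.60, 10.67, 10.58 and 10.67 in the 5 control livers. Every sample on the Western-style diet, with or without quercetin, was below every control. Its fitted difference was -0.467 ± 0.0915 (SE) in Western livers (adjusted p = 0.00399), a level 0.723 times that of control, and -0.431 in Western-plus-quercetin livers (adjusted p = 0.00939). The Western difference passed the threshold in 29 of 33 alternative settings, including each of the 17 that left out 1 sample. It missed it when the gene's 2 probe sets were averaged (adjusted p = 0.114), the second being too dim to be fitted on its own, in the values as deposited (0.0559) and in fits of the samples numbered 1 to 3 or 4 to 6 alone (0.194 and 0.0725).

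Atp5g1 is 1 of 3 genes that encode the same mature c subunit, with different import sequences. The other two did not pass the test. Atp5g2 read 10.21 at the lowest, 10.33 at the median and 10.35 at the highest in Western livers, against 10.27, 10.41, 10.37, 10.40 and 10.50 in control livers, and differed by -0.0774 (adjusted p = 0.521). Atp5g3 read 12.21, 12.28 and 12.40 in Western livers, against 12.33, 12.33, 12.34, 12.29 and 12.60 in control livers, and differed by -0.0777 (adjusted p = 0.559). For both, the groups overlapped.

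The distance between these genes within each sample is given as a description, with no test, since the genes were set side by side after their values had been seen. Atp5g1 minus Atp5g2 averaged -0.141 ± 0.158 in Western livers (SD, n = 6) and -0.12 ± 0.2 in Western-plus-quercetin livers (SD, n = 6), against 0.249 ± 0.103 in control livers (SD, n = 5). Atp5g1 minus Atp5g3 averaged -2.13 ± 0.145 in Western livers and -2.03 ± 0.229 in Western-plus-quercetin livers, against -1.74 ± 0.107 in control livers. The group difference in the first was -0.39 in Western livers and lay between -0.429 and -0.084 over 25 alternative settings. That in the second was -0.291 in Western-plus-quercetin livers and lay between -0.338 and -0.0334.

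**Figure D3:**
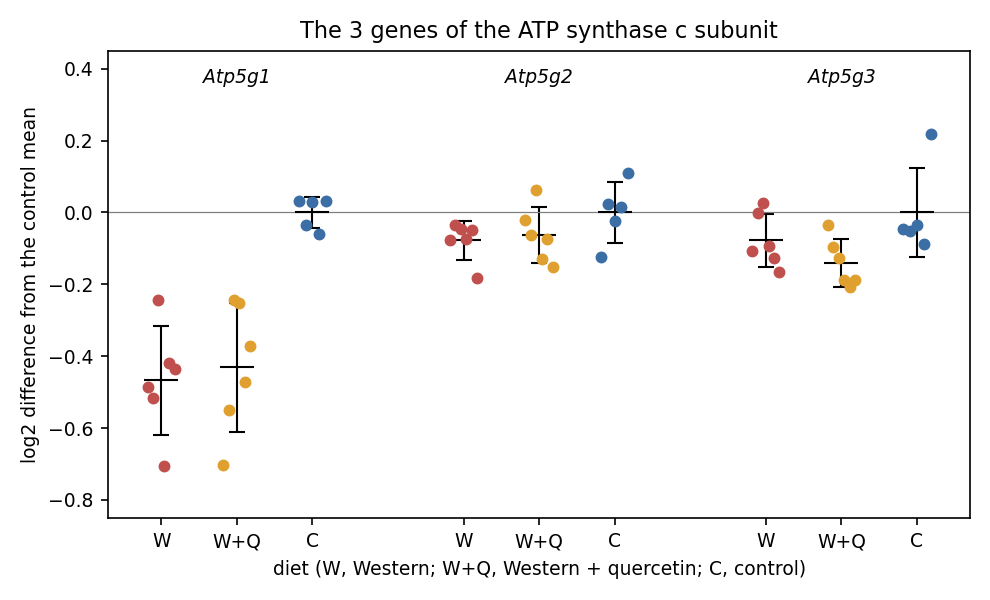
Log2 level of the 3 genes of the ATP synthase c subunit in each sample, each relative to its own control mean; points are samples, bars show the mean and SD (6 Western, 6 Western plus quercetin, 5 control). The 12 points of Atp5g1 on the Western-style diet lie below its 5 controls, while those of Atp5g2 and Atp5g3 overlap theirs.

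The 3 genes have unlike promoters, and the 250 bases before each start are printed because Atp5g1 passed the test and its paralogs did not. They are RefSeq sequences of build GRCm38.p6 on the minus strand, at chr11:96075632-96075881 for Atp5g1, chr15:102671048-102671297 for Atp5g2 and chr2:73911327-73911576 for Atp5g3. Capitals mark exact matches, on either strand, to 4 motifs of factors known to act on such promoters: the consensus motifs of NRF1 and of YY1, CCGGAAG for GABPA, and CCAAT, the box bound by NF-Y, whose complement is ATTGG.
Atp5g1 promoter: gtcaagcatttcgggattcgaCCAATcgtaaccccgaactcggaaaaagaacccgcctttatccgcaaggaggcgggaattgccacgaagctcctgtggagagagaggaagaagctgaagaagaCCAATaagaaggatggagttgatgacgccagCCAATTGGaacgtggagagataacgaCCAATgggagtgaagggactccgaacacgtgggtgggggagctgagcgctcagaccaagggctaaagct
Atp5g2 promoter: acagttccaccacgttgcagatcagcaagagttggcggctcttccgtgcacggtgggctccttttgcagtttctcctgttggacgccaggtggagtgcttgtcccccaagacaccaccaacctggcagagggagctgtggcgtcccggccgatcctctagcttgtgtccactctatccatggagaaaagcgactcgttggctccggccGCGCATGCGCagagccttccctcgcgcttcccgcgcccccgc
Atp5g3 promoter: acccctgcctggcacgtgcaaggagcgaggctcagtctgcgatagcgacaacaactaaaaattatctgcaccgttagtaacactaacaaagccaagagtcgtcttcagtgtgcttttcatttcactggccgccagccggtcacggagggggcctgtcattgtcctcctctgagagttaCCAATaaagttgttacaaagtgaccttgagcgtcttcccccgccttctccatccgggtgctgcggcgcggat
Atp5g1 held 5 CCAAT boxes, at 229, 126, 95, 92 and 69 bases before the start, those at 95 and 92 overlapping on opposite strands, and no match to the other 3 motifs. Atp5g2 held 1 NRF1 match, 42 bases before the start, and Atp5g3 held 1 CCAAT box, 72 bases before it. A match is a description of letters, not a bound site.

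The other genes of complex V lay closer to control. Of the peripheral stalk, which holds the catalytic head still, Atp5j (subunit F6) read 10.90, 11.01 and 11.10 in Western livers (lowest, median and highest), against 11.11, 11.24, 11.20, 11.19 and 11.24 in control livers. The groups did not overlap, but its difference of -0.192 did not pass the test (adjusted p = 0.0621), nor did the -0.203 of Western-plus-quercetin livers (adjusted p = 0.0636). Atp5h, subunit d of the stalk, differed by -0.189 (adjusted p = 0.166), also without overlap. Of the F1 head, Atp5e (epsilon) differed by -0.151 (adjusted p = 0.167), while Atp5a1 and Atp5b, which encode the alpha and beta subunits that make ATP, differed by -0.042 (95% interval -0.171 to 0.0867) and -0.00604 (-0.137 to 0.125). The median difference was -0.042 for the 5 head genes, -0.13 for the 4 stalk genes and -0.0933 for the 5 small membrane subunits. Atp5md, one of the small subunits, differed by 0.118 (adjusted p = 0.689) and varied most within groups (SD 0.259).

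In complex I, 3 accessory subunits and 1 assembly factor fell in Western livers. The 3 were all of the Ndufb series, subunits of the arm that lies in the membrane. Ndufb11 read 10.97 at the lowest, 11.00 at the median and 11.06 at the highest in Western livers and 10.97, 11.03 and 11.09 in Western-plus-quercetin livers, against 11.18, 11.25, 11.26, 11.20 and 11.43 in control livers. All 12 samples on the Western-style diet lay below all 5 controls. Its difference was -0.251 ± 0.0615 (SE) in Western livers (adjusted p = 0.0168) and -0.236 in Western-plus-quercetin livers (adjusted p = 0.0308). Its other probe sets read -0.208 and -0.207 in Western livers without passing the test (adjusted p = 0.221 and 0.0839, in a fit of single probe sets). The Western call held in 16 of the 17 settings that left out 1 sample and was lost without control 6 (adjusted p = 0.0503). With quercetin it held in 12 of the 17 and was lost without control 2, 3 or 6 or Western-plus-quercetin sample 1 or 2 (adjusted p = 0.0536 to 0.0861). Neither call held in the values as deposited (adjusted p = 0.482 and 0.539).

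The promoter of Ndufb11 is shown because it and Atp5g1 were the genes that passed the test in both groups on the Western-style diet. Its 250 bases before the start lie at chrX:20617620-20617869 on the minus strand (GRCm38.p6, RefSeq), with the capitals as above.
Ndufb11 promoter: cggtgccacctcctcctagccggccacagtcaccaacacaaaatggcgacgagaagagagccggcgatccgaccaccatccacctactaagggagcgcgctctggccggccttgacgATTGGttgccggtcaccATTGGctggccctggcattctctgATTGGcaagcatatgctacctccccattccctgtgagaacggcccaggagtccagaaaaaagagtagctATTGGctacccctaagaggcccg
It held 4 CCAAT boxes, all read as ATTGG on the printed strand, at 133, 116, 92 and 23 bases before the start, and no match to the other 3 motifs. At least 4 CCAAT boxes were found in 4 of the 74 genes with a promoter in the table (5.41%) and in 1.54% of the 10981 genes tested that had one. The other two were Atp5b, with 5 boxes and a difference of -0.00604, and Ndufaf8, with 4 boxes and a difference of -0.178 (adjusted p = 0.172). This count was made after the sequences had been seen. An NRF1 match was found in 4 of the 74 (5.41%, against 1.73% of genes tested), a GABPA match in 14 (18.9% against 14%), a YY1 match in 1 (1.35% against 0.683%) and at least 1 CCAAT box in 32 (43.2% against 39.8%). Of the other called genes in the table, Ndufb5, which fell, held 0 CCAAT boxes and Cox6b2, which rose, held 2, and neither held an NRF1, GABPA or YY1 match.

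Ndufb5 read 10.67, 10.74 and 10.81 in Western livers (lowest, median and highest) and 10.70, 10.80 and 10.84 in Western-plus-quercetin livers, against 10.96, 10.91, 11.02, 10.88 and 11.02 in control livers. The groups did not overlap, and its difference was -0.217 ± 0.0608 (SE) in Western livers (adjusted p = 0.0331) and -0.18 in Western-plus-quercetin livers (adjusted p = 0.0955). The Western call was lost without control 1, 3 or 6 or Western sample 2, 4 or 5 (adjusted p = 0.0513 to 0.0815). Ndufb9 read 11.52, 11.56 and 11.63 in Western livers and 11.52, 11.63 and 11.70 in Western-plus-quercetin livers, against 11.73, 11.84, 11.73, 11.70 and 11.76 in control livers. Its difference of -0.19 ± 0.058 (SE) in Western livers had an adjusted p of 0.049. It held in 1 of the 17 settings that left out 1 sample, the one without Western-plus-quercetin sample 2 (adjusted p = 0.0432), and was lost in the others (0.0518 to 0.119). Over the 10 Ndufb genes tested, 3 fell, 5 lay wholly below control and the median difference was -0.184. Over the other 17 accessory subunits 0 fell, 0 lay wholly below control and the median was -0.0752. Of all genes tested 3.16% fell and 2.73% lay wholly below control. In Western-plus-quercetin livers 5 of the 10 and 2 of the 17 lay wholly below control, against 2.1% of all genes. In the fit of single probe sets, a dimmer probe set of Ndufb7 fell in Western livers (-0.253, adjusted p = 0.0447). So did a dimmer one of Ndufa7, among the other 17 (-0.268, adjusted p = 0.0387). Whether the series differed was not tested. In Western livers Ndufb8 (-0.179, adjusted p = 0.123) and Ndufb3 (-0.136, adjusted p = 0.211) were the other Ndufb genes without overlap. Ndufb6 was the 1 Ndufb gene above control, by 0.087 (adjusted p = 0.728). Ndufb4, left out as dim, was measured on a probe set at 5.36 to 7.42 intensity units in Western livers and 7.71 to 10.6 in control livers.

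Among the other accessory subunits, Ndufa6 differed by -0.17 in Western livers (adjusted p = 0.099) and by -0.209 in Western-plus-quercetin livers (adjusted p = 0.0571), and Ndufa1, a small subunit of the membrane arm, by 0.0159 in Western livers (adjusted p = 0.911). Of the core subunits, most of which carry the flavin or iron-sulfur clusters, 0 passed the test and all 6 were negative in Western livers. Ndufv2, an iron-sulfur subunit, read 10.56, 10.63 and 10.69 in Western livers, against 10.84, 10.77, 10.82, 10.80 and 10.86 in control livers, a difference of -0.186 without overlap (adjusted p = 0.0808). Ndufs3, Ndufs7 and Ndufv1 differed by -0.156, -0.151 and -0.0842 (adjusted p = 0.245, 0.215 and 0.469), and Ndufs1 by -0.0287 (adjusted p = 0.851).

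Ndufs8 was measured by several probe sets that disagreed. On its brightest one it differed by -0.0477 in Western livers and by 0.161 in Western-plus-quercetin livers, with neither past the test (adjusted p = 0.839 and 0.438). Its 5 other probe sets lay between -0.41 and -0.171 in Western livers and between -0.266 and -0.155 in Western-plus-quercetin livers. Over all genes of the chain, 81 other probe sets of 49 genes could be fitted, of which 72 were negative in Western livers (median -0.146, 3 fell and 0 rose) and 67 in Western-plus-quercetin livers (median -0.14, 2 fell and 0 rose). They come from the same RNA as the brightest ones. The fit held 24825 single probe sets, and the shares negative or fallen among all of them were not computed. In the fit by gene, 53% of all genes were negative and 3.16% fell in Western livers. In Western-plus-quercetin livers these shares were 53.6% and 1.98%.

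The complex I assembly factors help to build the enzyme and are not part of it. Ndufaf6 read 7.37, 7.79 and 8.07 in Western livers (lowest, median and highest) and 7.69, 7.82 and 8.11 in Western-plus-quercetin livers, against 7.87, 8.09, 8.52, 8.12 and 8.78 in control livers. Western sample 6, at 8.07, lay above the lowest control, and the controls were spread more widely than either other group. The difference of -0.572 ± 0.153 (SE) in Western livers passed the test (adjusted p = 0.0263) and the -0.433 of Western-plus-quercetin livers did not (adjusted p = 0.112). The Western call was lost without control 3 or 6 or Western sample 1 or 4 (adjusted p = 0.0636 to 0.077). Ndufaf3 (-0.249), Ndufaf5 (-0.241), Ndufaf1 (-0.205) and Ndufaf8 (-0.178) did not pass it in Western livers (adjusted p = 0.0773 to 0.172), and Ndufaf4 differed by 0.0208 (adjusted p = 0.955).

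On their brightest probe sets, complexes II and III had 0 of 4 and 0 of 8 genes past the test in any comparison. Of all genes tested 3.16% fell and 5.49% rose in Western livers, and lists this short can hold 0 genes at those shares. Sdhd and Sdhc anchor complex II in the membrane, and Sdhb carries its iron-sulfur clusters. Sdhd differed by -0.207 in Western livers (adjusted p = 0.0933), Sdhb by -0.15 without overlap (adjusted p = 0.196), Sdhc by -0.0491 (adjusted p = 0.659) and Sdha, the flavoprotein that oxidises succinate, by 0.0221 (95% interval -0.105 to 0.149; adjusted p = 0.866). In the fit of single probe sets, a dim probe set of Sdha (mean level 5.58) fell in both groups on the Western-style diet. It differed by -0.387 in Western and -0.45 in Western-plus-quercetin livers (adjusted p = 0.0242 and 0.0133). A brighter one (mean level 10.7) differed by 0.0591 and 0.00684 (adjusted p = 0.693 and 0.922). In complex III, Uqcr10, a small subunit, differed by -0.186 (adjusted p = 0.141), while Uqcrh, Uqcrb and Uqcr11 differed by -0.0884, -0.0832 and -0.0654 (adjusted p = 0.548 to 0.606). Uqcrfs1, the Rieske iron-sulfur protein, differed by 0.0428 (adjusted p = 0.713).

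Complex IV has subunits with forms for different tissues, and the forms known from liver or from most tissues gave strong signals here. Intensities over all samples were at least 3550 for Cox4i1, 5060 for Cox6a1, 3660 for Cox6b1, 4260 for Cox7a2 and 920 for Cox8a. The heart and muscle forms Cox6a2, Cox7a1 and Cox8b stayed at or below 41.1, 38.4 and 15.2, the lung form Cox4i2 at or below 17, and the testis forms Cox6b2 and Cox7b2 at or below 16.6 and 4.02. The testis form Cox8c reached 58.2 to 173. Different probe sets are not comparable as amounts. Cox7c, a subunit of all tissues, read 21.6 to 40.7 on the brightest of its probe sets with 1 symbol.

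Of the 11 common or liver forms tested in complex IV, 0 passed the test in Western livers, with a median difference of -0.109. Cox6c, a small subunit, read 11.69, 11.79 and 11.88 in Western livers and 11.63, 11.74 and 11.79 in Western-plus-quercetin livers, against 11.99, 11.96, 11.95, 11.84 and 12.04 in control livers. Every Western-plus-quercetin sample lay below every control, and the difference of -0.228 ± 0.0638 (SE) passed the test (adjusted p = 0.0432), while in Western livers it was -0.183 (adjusted p = 0.084). Its second probe set had the opposite sign (0.211 in Western-plus-quercetin and 0.103 in Western livers, neither past the test), and the call held in 5 of the 17 settings that left out 1 sample. It held without control 4-5, Western sample 2, 3 or 4 or Western-plus-quercetin sample 3, and was lost in the others (adjusted p = 0.0514 to 0.104). Cox5b differed by -0.146 in Western livers (adjusted p = 0.155) without overlap, Ndufa4, a complex IV subunit first assigned to complex I, by -0.126 (adjusted p = 0.319) and Cox7a2l, a factor in joining complexes III and IV, by -0.117 (adjusted p = 0.468). Cox4i1, Cox6a1 and Cox7a2 lay within 0.0433 of control, with adjusted p of 0.713 to 0.99. For Cox4i1 the 95% interval was -0.123 to 0.119.

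Cox6b2 read 4.66, 4.90 and 4.98 in Western livers (lowest, median and highest) and 4.63, 4.82 and 5.02 in Western-plus-quercetin livers, against 4.54, 4.84, 4.13, 4.53 and 4.21 in control livers. These are intensities of 9.27 to 15.5 in Western and 1.55 to 12.6 in control livers, and the groups overlapped. Its difference of 0.416 ± 0.112 (SE) in Western livers had an adjusted p of 0.0265, and the 0.358 of Western-plus-quercetin livers had one of 0.0686. The Western call was lost without control 3 or 6 or Western sample 1, 3 or 5 (adjusted p = 0.0535 to 0.0776).

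**Figure D4:**
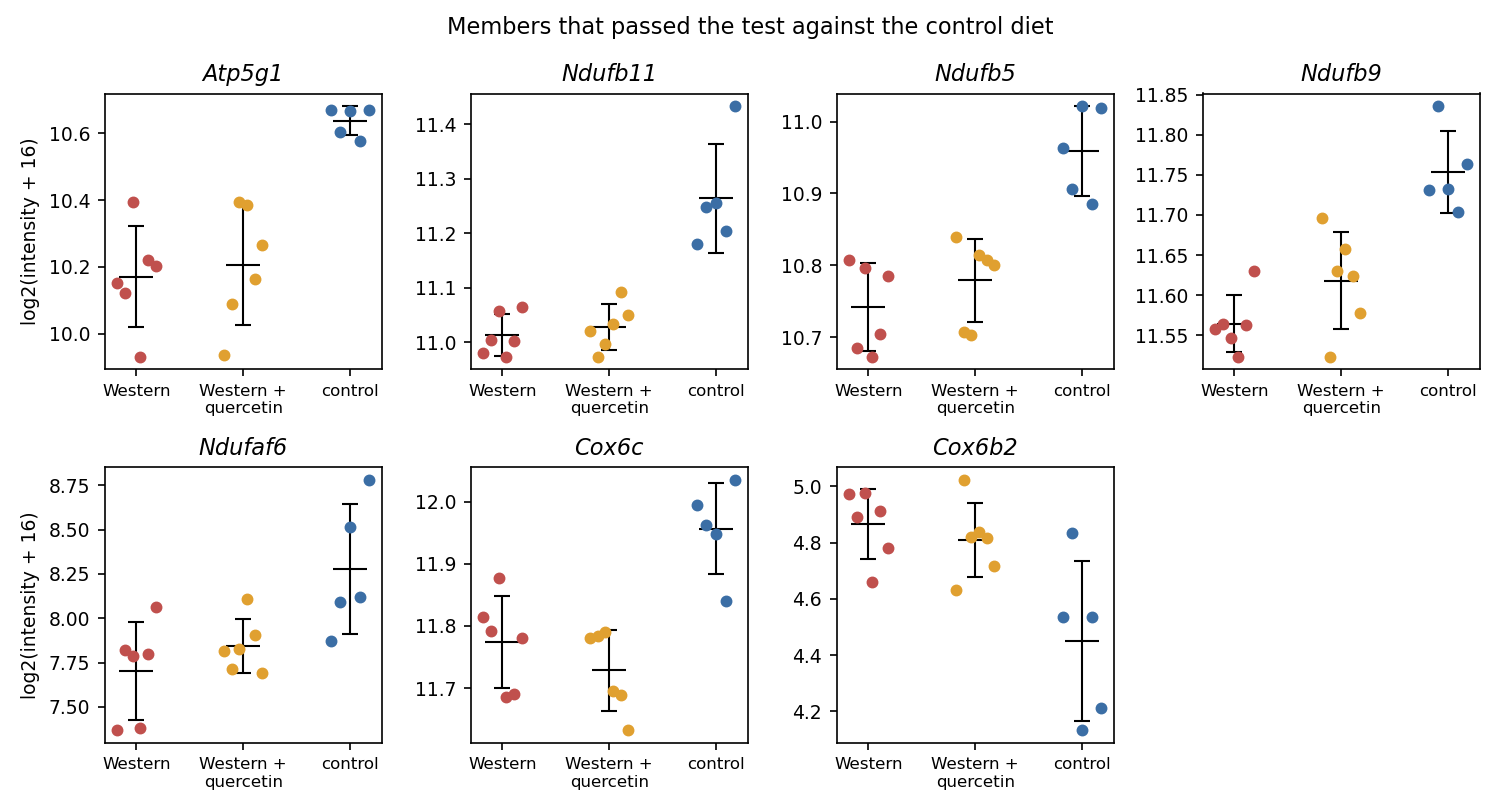
Log2(intensity + 16) in each sample of the 7 genes that passed the test against the control diet in at least 1 group; points are samples, bars show the mean and SD (6 Western, 6 Western plus quercetin, 5 control), and the vertical axes differ between genes. Every mean is lower on the Western-style diet, with or without quercetin, except that of Cox6b2, which lies higher at 4.13 to 5.02 over all samples.

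Adding quercetin to the Western-style diet left 0 of the 87 genes past the test, as it did for all 13645 genes (0 called, 0%). At an unadjusted p under 0.05 there were 2 genes, both higher with quercetin (2.3%, against 1.46% of all genes higher, 1.41% lower and 2.87% in either direction). Cox8c read 6.63, 7.05 and 7.47 in Western-plus-quercetin livers (lowest, median and highest) and 6.21, 6.55 and 7.13 in Western livers, a difference of 0.501 (95% interval 0.0947 to 0.908). Ndufaf5 read 5.90, 6.09 and 6.28 in Western-plus-quercetin livers and 5.74, 5.88 and 6.02 in Western livers, a difference of 0.204 (0.0207 to 0.387). Both pairs of groups overlapped, as they did for each of the 87 genes (0.066% of all genes were without overlap in each direction), and after adjustment neither passed. Ndufa4l2, a paralog of Ndufa4 known to respond to low oxygen, had the most negative difference, -0.282 (-0.611 to 0.046). Ndufa3 and Ndufa7, accessory subunits of complex I, had the smallest p in their group, with differences of -0.0696 (-0.2 to 0.0612) and 0.0685 (-0.0598 to 0.197).

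The signs were evenly split, with 43 of 87 negative (49.4%, against 52.3% of all genes), and the median difference was 0.00048, beside -0.00527 for all genes. By complex the medians ran from -0.0178 for complex IV to 0.0758 for the complex I assembly factors. For Atp5g1 the difference was 0.0361 (95% interval -0.147 to 0.219) and for Ndufb11 0.0146 (-0.109 to 0.138). At the median of the 87 genes the 95% interval reached 0.144 to each side of the difference. Differences smaller than that could not be told from 0, so the groups are not shown to be alike.

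Western-plus-quercetin livers were lower than control livers in 3 genes, Atp5g1, Ndufb11 and Cox6c, and higher in 0. This was 3.45% of the 87, where 1.98% of all genes fell, 3.43% rose and 5.41% passed in either direction. At an unadjusted p under 0.05 there were 19 genes downward (21.8%, against 9.46% of all genes) and 1 upward (1.15%, against 10.5%), together 23% against 19.9%. The difference was negative for 78 genes (89.7%, against 53.6% of all genes), every Western-plus-quercetin sample lay below every control for 11 (12.6% against 2.1%) and above for 0 (against 2.55%), and the median was -0.0917, beside -0.0146 for all genes. In the values as deposited that median was 0.0968 beside 0.221 for all genes, 0 of the 87 fell and 1 rose (Cox6b2), and of all genes 58 fell and 3197 rose, where quantile normalization gave 270 and 468. With array medians centred 0 of the 87 passed the test, and of all genes 104 fell and 575 rose. By complex, the median differences from control were -0.107 for the complex I accessory subunits, -0.0955 for complex IV, -0.0941 for the complex I assembly factors, -0.0717 for complex II, -0.064 for the complex I core, -0.0635 for complex V and -0.0595 for complex III. This comparison uses the same control samples as that of the Western-style diet alone, so the likeness of the values is partly built in.

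Other genes of the mitochondrion were described with lists of their own, and a negative median again is one relative to the other transcripts, since the medians of these lists were positive in the values as deposited. The counts below stand beside 3.16% of all genes that fell and 5.49% that rose in Western livers, and 1.98% and 3.43% in Western-plus-quercetin livers. Of 76 genes of the mitochondrial ribosome, which makes the subunits encoded by mitochondrial DNA, 6 fell and 0 rose in Western livers, with a median difference of -0.11, and 2 fell in Western-plus-quercetin livers (median -0.0887). Mrpl35 differed by -0.359 ± 0.0673 (SE; adjusted p = 0.00297), Mrps31 by -0.32 (0.0108), Mrps35 by -0.38 (0.0227) and Mrpl44 by -0.29 (0.0346) in Western livers. Of 18 further assembly factors of complexes I, II and V, 2 fell in Western livers (median -0.136): Ecsit, a complex I assembly factor, by 0.434 (adjusted p = 0.00226), and Lyrm2, by 0.504 (adjusted p = 0.0128). Of 22 further genes of complex IV, 3 fell and 1 rose in Western livers (median -0.101). Surf1 and Sco1, which build the complex and deliver its copper, differed by -0.275 and -0.32 (adjusted p = 0.0299 and 0.048), Lrpprc, which stabilises mitochondrial mRNA, by -0.248 (adjusted p = 0.0417), and the assembly factor Cox19 by 0.489 (adjusted p = 0.00239). Lrpprc was 0.0142 above control in the values as deposited, where the median of all genes was 0.216.

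Of 17 regulators of mitochondrial biogenesis and of mitochondrial DNA, 1 fell and 15 were negative in Western livers, with a median of -0.151. Ppargc1b, a coactivator of nuclear genes for mitochondria, differed by -0.469 ± 0.128 (SE; adjusted p = 0.029) in Western livers and by -0.424 (adjusted p = 0.0605) in Western-plus-quercetin livers. Its relative Ppargc1a differed by -0.421 (adjusted p = 0.0589) and -0.24 (adjusted p = 0.335). The transcripts of Nrf1, Gabpa and Yy1 differed by -0.0664, -0.126 and -0.0368 in Western livers (adjusted p = 0.548 to 0.844). Ssbp1, which coats single-stranded mitochondrial DNA, fell in Western-plus-quercetin livers by 0.372 (adjusted p = 0.00892) and differed by -0.182 in Western livers (adjusted p = 0.165).

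The enzymes that feed the chain are given next. Of 13 citric acid cycle genes, 1 rose and 0 fell, and the median was 0.0723 in Western and 0.0343 in Western-plus-quercetin livers, on the other side of the median of all genes under each of the 3 scalings. Idh2, the NADP-dependent isocitrate dehydrogenase of mitochondria, rose by 0.437 ± 0.0896 (SE; adjusted p = 0.00558) in Western and by 0.409 (adjusted p = 0.0114) in Western-plus-quercetin livers. Of 9 other genes that pass electrons to ubiquinone, 1 fell in Western livers (median -0.0607): Prodh2, an enzyme of hydroxyproline breakdown, by 0.577 (adjusted p = 0.00408). Sqor, the sulfide oxidising enzyme, fell beside it in Western-plus-quercetin livers, by 0.309 (adjusted p = 0.0414). Of 12 genes of coenzyme Q synthesis, 1 rose in Western livers, Coq2, by 0.227 (adjusted p = 0.04). The median of that list was -0.0261, and relative to all genes it was -0.0113 after quantile normalization and 0.0416 in the values as deposited, so that its sign turned. Of 19 genes of protein import, chaperones and membrane shape, 1 fell, Timm23, by 0.235 (adjusted p = 0.0322), and the median was -0.0533. Of 10 nucleotide carriers, uncoupling proteins and channels (median 0.0225, which turned to -0.00224 relative to all genes in the values as deposited), and of 7 further genes of complex III and cytochrome c (median -0.111), 0 passed the test. Whether these lists differ from the 87 genes was not tested.

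**Figure D5:**
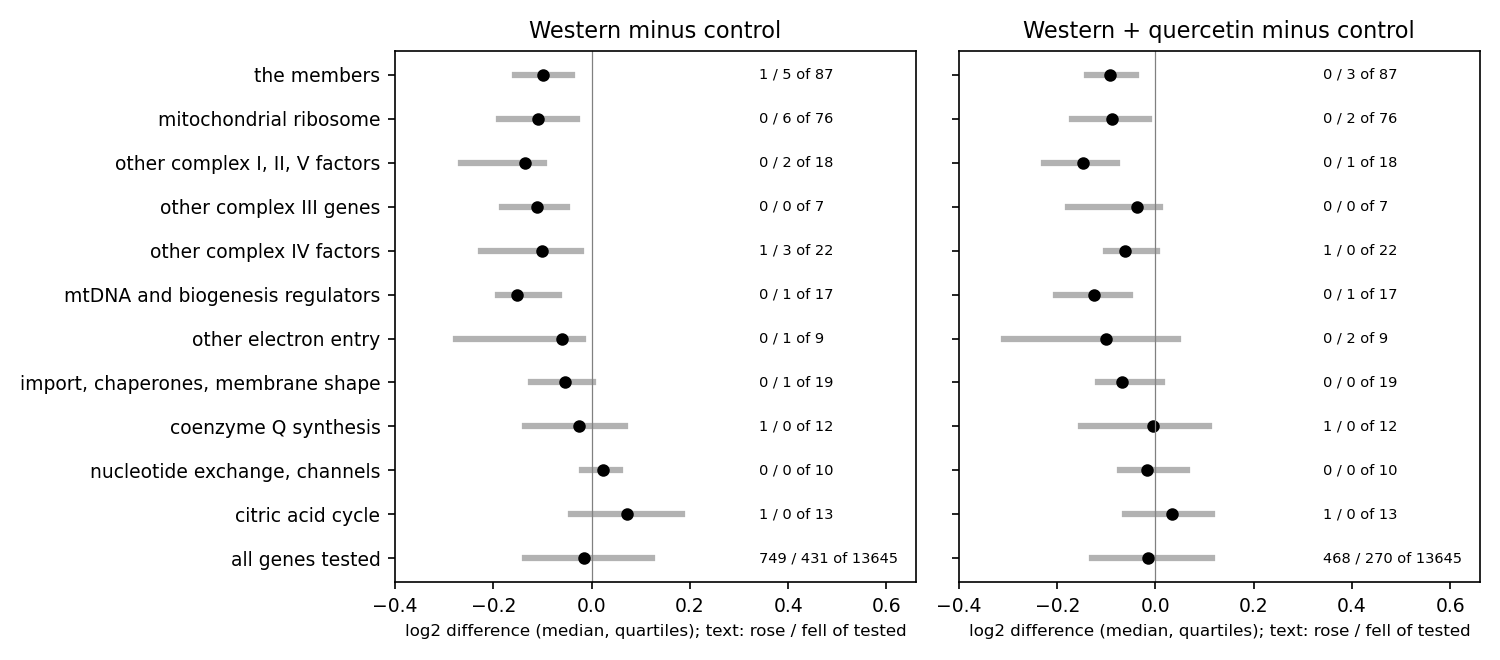
Median (point) and quartiles (bar) of the log2 difference from the control diet over the genes of each list, for the Western-style diet (left) and the same diet with quercetin (right); the text gives how many rose and fell of those tested. The chain lies at -0.0989 and -0.0917, the mitochondrial ribosome at -0.11 and -0.0887, and the citric acid cycle at 0.0723 and 0.0343.

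Markers of macrophages and of stellate cells moved with the diet. Of 17 macrophage markers 9 rose and 0 fell in Western livers (median difference 0.676), and of 12 stellate cell markers 7 rose and 0 fell (median 0.535). The summed macrophage signal was 7476 to 13720 in Western livers and 6089 to 17650 in Western-plus-quercetin livers, against 4953 to 6390 in control livers, and all 17 and 12 markers passed the filter on dim genes. The summed stellate signal was 3665 to 5323 in Western and 3399 to 6064 in Western-plus-quercetin livers, against 2726 to 2899 in control livers. Of 10 endothelial markers 1 rose (Lyve1) and 0 fell in Western livers (median 0.0929), where 5.49% of all genes rose. Of 7 T and B cell, 5 neutrophil and 4 cholangiocyte markers 0 passed the test in Western livers. Their medians were -0.1, 0.121 and 0.267. Of the 11 hepatocyte markers 1 fell (Tat, a liver transaminase) and 0 rose in Western livers. The difference was negative for 9, 5 of them with an unadjusted p under 0.05. It was positive for 2, both with an unadjusted p under 0.05 (the higher was Apob, 0.415), so the markers were split. The median difference of the 11 markers was -0.0643 in Western and -0.0863 in Western-plus-quercetin livers, beside -0.0989 and -0.0917 for the chain. Their summed signals were 66240 to 69300 in Western and 66740 to 69950 in Western-plus-quercetin livers, against 67220 to 71290 in control livers, so that the groups overlapped. The summed signal of all 90 genes of the chain was 151700 to 158300 in Western and 149000 to 160100 in Western-plus-quercetin livers, against 160500 to 166200 in control livers, without overlap. All these sums are given after quantile normalization only, so they are relative to the other transcripts. In the values as deposited the median of the 87 genes was 0.0736 above control in Western and 0.0968 in Western-plus-quercetin livers. The part of hepatocytes and of the other cells in the result was not tested.

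A measure of RNA quality moved with the diet as well. The log2 ratio of the 3′ to the 5′ actin probe sets averaged 0.544 ± 0.11 in Western livers (SD, n = 6) and 0.554 ± 0.0783 in Western-plus-quercetin livers (SD, n = 6), against 0.687 ± 0.0558 in control livers (SD, n = 5; exact permutation test, two-sided, p = 0.0325 and 0.0195). The same ratio of Gapdh did not differ past 0.05 (exact permutation p = 0.517 and 0.331). With the actin ratio as a covariate the median difference of the 87 genes was -0.0839 in Western and -0.0666 in Western-plus-quercetin livers. Of the 87, Atp5g1 was the 1 gene that passed the test in each, at -0.514 and -0.474. Among all genes tested 223 and 155 passed with this covariate, beside 1180 and 738 without it.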

How the data were processed

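The files hold 1 intensity per probe set and array for 18 arrays, as deposited by the authors. Per the labels' protocols, biotin-labelled cRNA of 1 mouse was hybridised to each Affymetrix Mouse430_2 array. No software, scaling or background step for the intensities is named by any source used here, and their linear scale and uneven array medians were read from the values.

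Of 45101 probe sets 64 controls were left out, 16 was added to the rest and log2 taken, and the arrays were then quantile normalized. Control arrays 4 and 5 were averaged. Genes were named from probe sets with 1 symbol, kept by their brightest probe set, and filtered at the 25th percentile of mean level. One limma fit (limma 3.58.1, R 4.3.3) covered the 3 groups, with Benjamini-Hochberg adjustment over 13645 genes at 0.05, and was tested on simulated data. The actin and Gapdh ratios were compared with exact permutation tests. The 33 alternatives changed the scaling, offset, filter, probe sets, samples or covariates. The text names genes that passed a test, those with the smallest p in each complex, isoform families, the brightest and dimmest genes and the edge of the filter. The genes and lists were chosen with earlier results of these data known. The number of arrays limits the precision. Promoters are RefSeq sequences of build GRCm38.p6, matched by symbol.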

Additional observations from a re-analysis of the deposited data

Results flagged for a closer look

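In both groups on the Western-style diet 1 sample lay far from the others in complex III, as the median over the 8 genes of each gene's log2 difference from its mean. It was -0.0987 in Western sample 4, against -0.0144 to 0.0213 in the other 5 Western samples. It was -0.108 in Western-plus-quercetin sample 2, against -0.0191 to 0.0283 in the other 5 samples of that group. The gap to the nearest sample was 0.702 and 0.652 of the group's range, above Dixon's 95% critical value for 6 samples. There were 2 such samples among 45 groups examined, and chance gives about 1 in 20.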

How the results depend on the processing

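The comparison of the Western-style diet with and without quercetin gave 0 genes of the chain past the test under every alternative run. Against control, none of the 7 genes of the chain that passed the test turned its sign under any alternative, but the number that passed moved between settings. Of the other genes counted as fallen, Lrpprc (0.0142) and Mrpl24 (0.0664) were above control in the values as deposited. The number was 6 in Western and 3 in Western-plus-quercetin livers, and it was 1 and 1 without normalization between arrays (Cox6b2, higher, so that 0 fell), 1 and 0 after centring on array medians (Atp5g1, lower), 10 and 8 with 64 added, 8 and 8 with the filter at the median of all genes, 7 and 7 with each gene's probe sets averaged, 8 and 5 with control arrays 4 and 5 as 2 samples, and 2 and 1 with only the groups compared in the fit. It was 0 and 0 with the samples numbered 1 to 3 and again with those numbered 4 to 6, each with fewer samples, and 1 and 1 with the actin ratio as a covariate. Leaving out 1 sample gave 1 to 6 genes of the chain in Western livers (1 without control 6, 2 without control 3, 3 without Western 1, 4 or 5). In Western-plus-quercetin livers it gave 1 to 3 (1 without control 3, control 6, or sample 1 or 2 with quercetin). Among all genes it gave 748 to 1394 and 460 to 949. The labels do not say that a replicate number marks a shared cage, batch or day, so the numbers were not taken to pair the samples. The deviations of same-numbered samples correlated at over 0.1 in 15 of 18 pairs (range -0.262 to 0.33) and 10 of 18 arrays correlated best with their own number, a hint from the data that some numbers share something. With the replicate number as a block and control arrays 4 and 5 as 2 samples the counts for the chain were 6 and 4 (1 of the 4 higher). They were 8 and 5 without the block, and 0 between the 2 Western-style diets with it. With blocks of numbers 1 to 3 and 4 to 6 they were 8 and 6. Quantile normalization without these genes, chosen after seeing the data, gave 7 and 4.

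The median difference from control kept its sign over all 87 genes except in the values as deposited, where it was 0.0736 in Western livers (core 0.0618, accessory 0.062 and assembly 0.0762 of complex I, 0.0727, 0.0904, 0.0678 and 0.0689 for complexes II to V) and 0.0968 in Western-plus-quercetin livers (0.133, 0.0932, 0.182, 0.111, 0.107, 0.0834 and 0.0948 in the same order). With array medians centred it was -0.0852 for accessory and -0.0711 for assembly genes in Western livers and 0.0048 for assembly genes in Western-plus-quercetin livers. With the mean of probe sets the core median was -0.133 in Western-plus-quercetin livers. Samples 1 to 3 gave -0.157 for accessory and -0.282 for assembly genes against control in Western-plus-quercetin livers, and -0.0203 for core genes against Western livers. Samples 4 to 6 gave -0.18 for core genes in Western livers, -0.00111 for assembly genes in Western-plus-quercetin livers, and 0.126 for core and 0.0524 for accessory genes in Western-plus-quercetin against Western livers. With the actin covariate complex IV was at -0.0648 in Western livers. Leaving out 1 sample gave -0.122 to -0.0626 for complex IV in Western livers (the value nearest 0 without control 2) and -0.113 to -0.0574 for complex V in Western-plus-quercetin livers. The cause of these moves was not tested, and genes near background, such as Cox6b2, are limited by their signal.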
